A study of Mus musculus with 20 samples.

Results

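The libraries described here are 3 of 20, chosen by their share of counts on Rmrp, the RNA component of the enzyme RNase MRP, which is under 0.02%. They are primary tumour 4, metastasis 4-1 and metastasis 3-2, and they are set against the other 17 libraries. The series holds RNA from 6 primary mouse sarcomas and 14 lung metastases, each named for the primary tumour it is matched with, and its title names Neat1, a long non-coding RNA, together with metastasis and splicing. Metastasis 4-1 is the metastasis labelled 1 of primary tumour 4, and metastasis 3-2 is the metastasis labelled 2 of primary tumour 3. All 20 samples carry the genotype label Mixed background and the source label of mouse tumour tissue, and no treatment, age or animal is given for either group. The p-values below therefore measure the spread between these samples. Both libraries of matched set 4 are low, so that tumour and the low state cannot be told apart, whereas set 3 holds 1 low library, metastasis 3-2, beside primary 3 and metastasis 3-1, which are not.

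RNase MRP is a nucleolar ribonucleoprotein that cleaves precursor ribosomal RNA, and its RNA is closely related to Rpph1, the RNA of RNase P, which trims the 5′ ends of precursor transfer RNAs. Both are compact, heavily base-paired RNAs made by RNA polymerase III, as are 7SK RNA (Rn7sk), which restrains the elongation factor P-TEFb, and the Y RNAs, which bind the Ro60 protein. Small nucleolar RNAs (snoRNAs) guide chemical modification of ribosomal RNA and are mostly cut from introns of host genes, and scaRNAs do the same for spliceosomal RNAs in Cajal bodies. RNAs differ in size and also in base composition: G pairs with C through more hydrogen bonds than A with U, and messenger RNAs of mammals span a wide range of GC content.

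The 6 small RNAs below show the features that went with a low or a high level, and in each the G and C bases are in capitals. They come from the GENCODE annotation of GRCm38 (mm10). Rmrp lies at chr4:43492788-43493058 on the minus strand and has 271 bases, of which 64.2% are G or C. Snora78, a snoRNA inside the host gene Snhg9 at chr17:24719676-24719803 on the minus strand, has 128 bases and 64.1% GC. Snord104, a snoRNA of only 70 bases at chr11:106500993-106501062 on the plus strand, has 51.4% GC. Snord69, inside the host gene Gnl3 at chr14:31014287-31014366 on the minus strand, is of like size, with 80 bases, but has 42.5% GC. The Y RNA Rny1, at chr6:47788069-47788180 on the minus strand, has 112 bases and 43.8% GC. The scaRNA gene Gm22009, inside Kpna4 at chr3:69085105-69085447 on the minus strand, is longer than Rmrp at 343 bases, with 39.4% GC, and its first 300 bases are shown. The first 3 were lower in the Rmrp-low libraries and the last 3 were higher.
Rmrp: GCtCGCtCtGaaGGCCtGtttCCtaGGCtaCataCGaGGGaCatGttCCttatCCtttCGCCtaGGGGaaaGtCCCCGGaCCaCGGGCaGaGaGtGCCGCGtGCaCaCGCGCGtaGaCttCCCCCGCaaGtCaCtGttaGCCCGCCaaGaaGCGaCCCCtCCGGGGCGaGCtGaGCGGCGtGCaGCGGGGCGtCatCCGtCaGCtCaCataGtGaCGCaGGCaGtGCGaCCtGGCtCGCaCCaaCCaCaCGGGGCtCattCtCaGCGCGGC
Snora78: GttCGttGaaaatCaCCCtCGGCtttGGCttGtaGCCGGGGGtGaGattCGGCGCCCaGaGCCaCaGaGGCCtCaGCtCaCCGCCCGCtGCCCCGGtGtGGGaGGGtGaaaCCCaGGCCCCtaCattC
Snord104: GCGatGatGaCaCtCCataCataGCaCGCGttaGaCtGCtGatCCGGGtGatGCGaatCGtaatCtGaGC
Snord69: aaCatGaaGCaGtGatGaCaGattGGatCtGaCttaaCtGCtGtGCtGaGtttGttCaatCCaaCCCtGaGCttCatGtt
Rny1: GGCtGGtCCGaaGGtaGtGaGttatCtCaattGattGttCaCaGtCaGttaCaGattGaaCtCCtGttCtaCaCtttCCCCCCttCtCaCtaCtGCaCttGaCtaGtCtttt
Gm22009: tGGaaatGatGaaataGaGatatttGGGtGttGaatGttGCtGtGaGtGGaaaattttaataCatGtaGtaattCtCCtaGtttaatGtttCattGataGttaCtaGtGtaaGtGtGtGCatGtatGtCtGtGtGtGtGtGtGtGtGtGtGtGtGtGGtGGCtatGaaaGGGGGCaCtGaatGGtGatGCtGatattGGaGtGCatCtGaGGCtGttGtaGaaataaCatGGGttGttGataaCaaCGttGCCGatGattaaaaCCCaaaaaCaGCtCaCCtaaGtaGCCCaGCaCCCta

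Rmrp took 0.0017% of the counts of primary 4 (453 of 26287783), 0.0031% of those of metastasis 4-1 (1052 of 34246354) and 0.0117% of those of metastasis 3-2 (2977 of 25539196). The nearest libraries above the threshold were primary 6 with 0.0717% and primary 2 with 0.0731%, and the median of the other 17 was 0.213%. The highest share, 0.992%, was that of metastasis 3-1, which is matched with the same primary tumour as metastasis 3-2. These values chose the libraries and are given without a test. Total counts ran from 20603620 to 36824370 over all libraries, and those of the low libraries lie inside that range. Only metastasis 3-1, with 20603620, had fewer counts than primary 4 and metastasis 3-2. The part of depth was not tested. Of the 6 primary tumours 1 was low, and of the 14 metastases 2 were, and 2 of these 3 libraries are from 1 matched set.

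**Figure D1:**
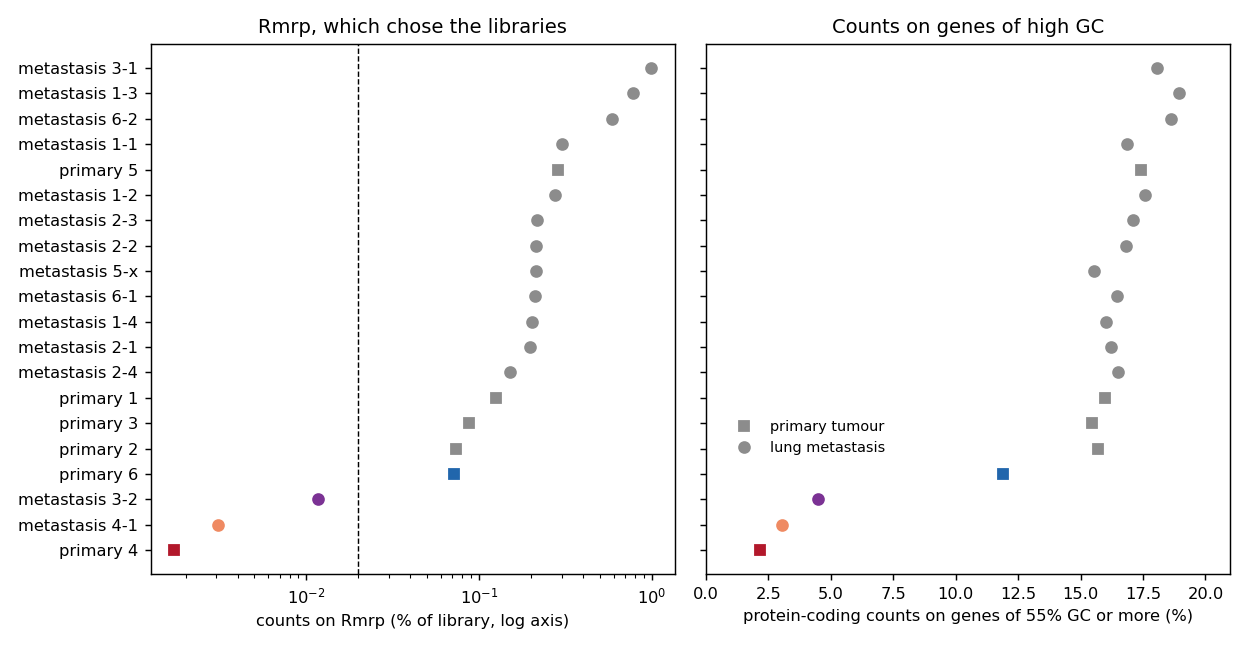
Left, the percentage of counts on Rmrp in each library, on a log axis with the threshold of 0.02% dashed; right, the percentage of protein-coding counts on genes of 55% GC or more. Squares are primary tumours and circles lung metastases. The 3 low libraries hold 2.18%, 3.03% and 4.49% on the right, primary 6 (blue) holds 11.9%, and no other library is below it.

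Small non-coding RNAs other than Rmrp, summed as a class, took a smaller share of counts in the low libraries. They took 0.158% of counts in primary 4, 0.379% in metastasis 4-1 and 0.533% in metastasis 3-2, against 1.25% to 4.06% (median 2.12%) in the other 17. All 3 low libraries lie below all others, and the difference within tumour type was -1.93 percentage points (exact two-sided permutation of the low labels within tumour type, 546 arrangements, p = 0.0018, which is the smallest these arrangements can give; adjusted p = 0.0034 over 15 library-level values). The arrangements take no account of matched sets, although primary 4 and metastasis 4-1 are from the same set. With the matched set as a block no p under 0.5 is possible. The class was chosen with Rmrp in it, so its share is not independent of the choice of libraries even though Rmrp was taken out of it. Without the misc_RNA type, which contains Rn7sk, the difference was -0.434 points and did not pass (exact permutation p = 0.095).

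Within the class the small RNAs split by base composition. Small RNAs of 55% GC or more took 0.0656%, 0.164% and 0.299% of counts in primary 4, metastasis 4-1 and metastasis 3-2, against 1.16% to 3.88% in the others. In the low libraries most of these counts were on Rn7sk alone (16895, 54646 and 73780 counts, against 250871 to 1095782 in the others). In the low libraries this share is thus largely that of 1 RNA. In the others Rpph1 also took part, with 13871 to 287661 counts, against 76, 357 and 548 in the low libraries. Small RNAs of under 45% GC took 0.0600%, 0.113% and 0.123%, against 0.0363% to 0.101%. Both low metastases thus lie above all other libraries while primary 4 lies among them (exact permutation p = 0.0037, 0.0061 adjusted). Of 3525 annotated small RNA genes 244 passed the filter on low counts, and of these 65 were higher and 58 lower in the low libraries (edgeR quasi-likelihood test with tumour type as a covariate, adjusted p under 0.05). Over all 19980 genes tested, 4361 or 21.8% were higher and 5525 or 27.7% lower, so these are shares near the background. The median log2 fold change of the 244 was 0.34. The smaller share of counts of the class was thus not that of its typical member. Of the 43 small RNAs of under 40% GC, 31 were higher and 0 lower, with a median log2 fold change of 1.59. Of the 7 of 60% GC or more, 0 were higher and 7 lower, with a median of -3.81. Across the 244 genes the fold change followed GC (Spearman rho -0.82) more closely than length (-0.41), a description over genes that share the same libraries.

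RNAs of one size went both ways. Among small RNAs under 200 bases, 61 of 134 with under 50% GC were higher and 5 lower, whereas 1 of 60 with 50% GC or more was higher and 27 lower. Among those of 200 bases or more, the 16 of under 50% GC had a median of 0.12, with 3 higher and 2 lower, and the 34 of 50% GC or more had a median of -3.82, with 0 higher and 24 lower. The same split held for the 192 small RNAs inside a host gene and for the 52 that are not: the medians were 1.18 and -1.48 inside a host gene, and 0.83 and -3.81 outside, for under 50% GC and for 50% or more. Across the 192 the fold change went with the RNA's own GC (rho -0.77) more than with its host's fold change (rho 0.37).

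**Figure D2:**
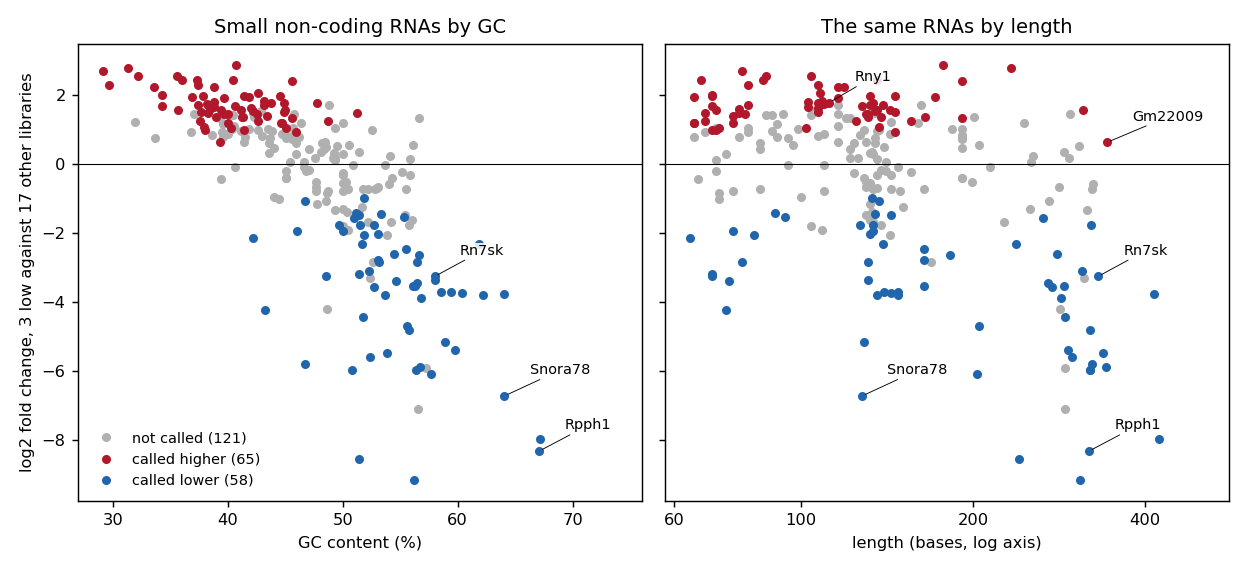
Log2 fold change of each of the 244 tested small non-coding RNAs, 3 low against 17 other libraries, by GC content (left) and by length on a log axis (right), with the 65 called higher in red and the 58 called lower in blue. On the left the points fall from the upper left to the lower right, and on the right RNAs of about the same length lie on both sides of 0.

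Rpph1, the sister RNA of Rmrp, has 319 bases and 67.1% GC and lies at chr14:50807449-50807767 on the minus strand. It stood at 3.86 CPM (the count scaled to the library total and its TMM factor) in primary 4, 11.6 in metastasis 4-1 and 20.5 in metastasis 3-2, against 458 to 13829 (median 2521) in the others, with no overlap. Its log2 fold change was -8.33 ± 0.979 (SE, edgeR adjusted p = 8.15e-07). Groups that do not overlap were not particular to such RNAs: the low libraries lay below all others for 3211 genes, 16.1% of those tested, and above all others for 1465, or 7.33%. Terc, the RNA template of telomerase with 67.1% GC, had 0, 1 and 0 counts in primary 4, metastasis 4-1 and metastasis 3-2 and 43 to 385 in each of the others, and no fold is given for it. Rn7sk (331 bases, 58.01% GC) stood at 857, 1773 and 2759 CPM, against 8639 to 32910 (-3.26 ± 0.396, adjusted p = 1.19e-06). Snora78, whose sequence is shown above, stood at 0.101, 0.162 and 1.01 CPM against 14.4 to 86.2 (-6.73 ± 0.636), and Snora73b, of 55.6% GC, at 4.21, 18.4 and 15.6 against 123 to 774 (-4.70 ± 0.501). Snora73a, of the same 205 bases and with 56.1% GC, did not fall and did not pass (0.56, edgeR adjusted p = 0.199). Snord104, the shortest of those shown, stood at 0.0507, 0.357 and 0.897 CPM against 2.22 to 6.54 (-3.18 ± 0.476, adjusted p = 1.43e-05).

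Some small RNAs richer in A and U were higher, although 5 of the 134 shorter and 2 of the 16 longer ones of under 50% GC were lower, as given above. Rny1 stood at 57.3, 33.2 and 60.02 CPM in primary 4, metastasis 4-1 and metastasis 3-2 against 4.99 to 29.2 in the others (log2 fold change 1.78 ± 0.335, edgeR adjusted p = 0.000187). Snord69 stood at 3.81, 1.43 and 2.51 CPM against 0.550 to 1.42 (1.46 ± 0.318, adjusted p = 0.00074), just clear of the others. Gm22009 stood at 391, 728 and 819 CPM against 216 to 634, so that both low metastases were above the others and primary 4 among them (0.63 ± 0.216, adjusted p = 0.021), and without metastasis 3-2 its value was 0.48 (adjusted p = 0.135). The spliceosomal RNA genes Gm24265 and Gm24407, of 46.8% and 45.4% GC, had log2 fold changes of -0.20 and 0.06 and did not pass (adjusted p = 0.785 and 0.941). With matched set as a block, where the difference is estimated from set 3 alone, Rny1 (1.15, adjusted p = 0.346), Snord69 (1.46, 0.255) and Gm22009 (0.94, 0.201) did not pass. SnoRNAs and their hosts went the same way in some cases and not in others. Snhg9, the host of Snora78 with 59.02% GC, had 0, 0 and 2 counts in primary 4, metastasis 4-1 and metastasis 3-2 against 1 to 57 in the others (adjusted p = 0.000271, and 0.205 with the block). Snord17, a snoRNA of 51.7% GC in an intron of Snx5, fell (-2.31 ± 0.652, adjusted p = 0.006) while its host, of 45.2% GC, rose (1.27 ± 0.201, adjusted p = 2.7e-05). Without primary 4 Snord17 had -1.87 (adjusted p = 0.061), with the block Snx5 had 1.18 (adjusted p = 0.082), and the pair was chosen after its values were seen. Rn7sk, Rny1 and the spliceosomal RNA genes have near-identical copies in the genome, between which reads may be split.

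Messenger RNAs showed the same order by base composition. Of 355 tested protein-coding genes whose longest transcript has under 38% GC, 219 were higher and 0 lower in the low libraries, with a median log2 fold change of 1.41. The 3238 genes of 46% to 50% GC had a median of -0.03. Of 1204 genes of 58% to 62% GC, 6 were higher and 1008 lower, with a median of -3.12, and of the 249 above that 4 were higher and 202 lower, with a median of -3.53. Genes called higher had a median GC of 42.5% and genes called lower 55.3%, against 48.9% for all genes tested. Across the 10969 protein-coding genes whose mean log2 CPM reached 2, the fold change and GC had a Spearman rho of -0.86, with -0.74 for the GC of the coding sequence alone and -0.76 for the GC of the 3′ UTR alone. The median fold change of all tested genes was -0.27, and single values are to be read against it. With DESeq2's size factors it was -0.21, and with library totals -0.43.

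Each low library showed the tilt on its own, and to a different degree. A line fitted across those 10969 genes, each library against the mean of those not low in Rmrp, fell by 2.74 on the log2 scale per 10 points of GC in primary 4, by 2.21 in metastasis 4-1 and by 1.59 in metastasis 3-2. Primary 6, the library just above the threshold, came next with -0.62, and the remaining 16 lay between -0.12 and 0.20. In genes of 58% to 62% GC the median deviation was -3.59, -2.78 and -2.20 in primary 4, metastasis 4-1 and metastasis 3-2 and -0.84 in primary 6, whereas no GC class of the other 16 libraries deviated beyond -0.28 or 0.48. Metastasis 3-1, from the same matched set as metastasis 3-2, had a slope of 0.13.

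**Figure D3:**
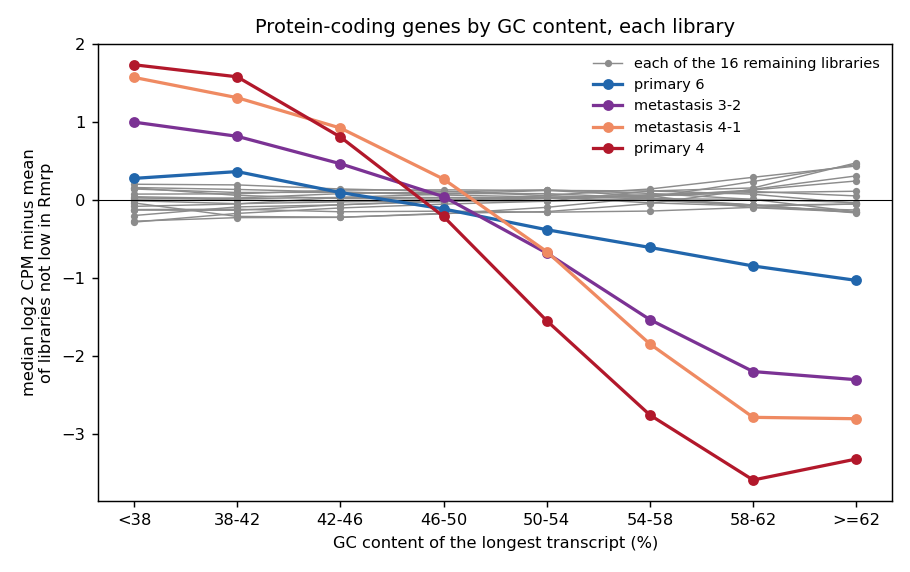
Median deviation of protein-coding genes from the mean of the libraries not low in Rmrp (log2 CPM), by GC content of the longest transcript in percent, 1 line a library. The 3 low libraries start at 1.73, 1.57 and 1.00 and end at -3.32, -2.80 and -2.30, primary 6 (blue) ends at -1.03, and the other 16 libraries (grey) stay between -0.28 and 0.48.

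In counts, genes of 55% GC or more took 2.18% of protein-coding counts in primary 4, 3.03% in metastasis 4-1 and 4.49% in metastasis 3-2, against 11.9% to 19.0% in the others (within-type difference -13.2 points, exact permutation p = 0.0018, adjusted p = 0.0034). Genes of 42% GC or less took 33.4%, 27.6% and 25.2%, against 11.5% to 16.5%. The mean GC of a protein-coding count, weighted by counts, was 44.3%, 45.1% and 45.7%, against 47.8% to 49.4%. In all 3 measures the groups are apart. Rmrp is itself an RNA of high GC, so these measures are not independent of the choice of libraries.

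Transcript length followed the split less closely. The short minus long transcript index, the median log2 CPM of protein-coding genes with under 1000 exonic bases minus that of genes with over 5000, was -2.91 in primary 4, -1.92 in metastasis 4-1 and -2.18 in metastasis 3-2, against -1.59 to -0.66 in the others (difference -1.26, exact permutation p = 0.0018, adjusted p = 0.0034). Short transcripts were thus lower, but they also had more GC: the median was 52.8% in transcripts under 1500 bases and 47.1% in those of 6000 or more. Their medians of fold change were -1.40 and 0.10. At 56% GC or more the median was -3.16 in transcripts under 1500 bases and -2.88 in those of 6000 or more, and at under 44% GC it was 0.92 and 1.16. The medians were thus further apart between these GC classes than between these lengths. Across the 10969 genes rho was 0.24 for length.

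Among the genes of smallest p that were higher in the low libraries were Ppp3r1, Ptges3, Tug1, Ube2d2a, H3f3a, Tmx3, Ube2b, Paip1 and Xiap, with 35.3% to 43.3% GC. For all 9 the low libraries lay above every other. Ppp3r1, the regulatory subunit of the phosphatase calcineurin, stood at 425 CPM in primary 4, 329 in metastasis 4-1 and 274 in metastasis 3-2, against 97.2 to 137 (log2 fold change 1.56 ± 0.0893, edgeR adjusted p = 9.32e-10). Tug1, a long non-coding RNA, stood at 583, 292 and 297 CPM against 93.3 to 144 (1.72 ± 0.117). Xiap, an inhibitor of caspases, had 1.52 ± 0.116, the ubiquitin-conjugating enzyme gene Ube2b 1.25 ± 0.0930 and the histone variant gene H3f3a 1.97 ± 0.141. The gene of a co-chaperone of HSP90, Ptges3, had 1.72, Ube2d2a 1.62, Tmx3 1.97 and Paip1 1.61.

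The 8 largest rises among genes whose mean log2 CPM reached 2 rested mostly on primary 4. They were Dnah5, a ciliary dynein gene (4.81), Cxadr, an adhesion protein and virus receptor gene (4.46), Myf5, a myogenic transcription factor gene (3.49), Mctp2 (3.02), Aspa (2.98), Zfp945 (2.91), the interferon-induced gene Ifi44 (2.88) and Prkg2, a cGMP-dependent protein kinase gene (2.77). Cxadr stood at 933 CPM in primary 4 but at 61.3 and 41.2 in metastases 4-1 and 3-2, against 1.88 to 68.0. Ifi44 stood at 916 CPM in primary 4 and at 13.3 and 42.9, against 1.94 to 84.8, so that primary 4 alone was high. Without primary 4 the values were -0.05 for Dnah5, 1.08 for Cxadr, 0.70 for Myf5, 0.91 for Mctp2, 1.12 for Aspa, 1.46 for Zfp945 and 1.27 for Ifi44, and none of these 7 passed (edgeR adjusted p of 0.078 to 0.981). Leaving out primary 1 also ended the call of Myf5 (3.39, adjusted p = 0.052), and limma voom gave Dnah5 a value of 1.06 (adjusted p = 0.248). Prkg2, at 1779, 714 and 509 CPM against 36.7 to 235, passed without it. With matched set as a block none of the 8 passed, among them Prkg2 (2.09, adjusted p = 0.106).

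The genes of smallest p that were lower were Gnb2, Ncdn, Btbd2, Rbck1, Mcrip1, Fam207a, Polr2e, Emc10, Tbc1d17 and Slc4a2, with 56.1% to 61.6% GC, and in all 10 the low libraries lay below every other. Gnb2, a beta subunit of heterotrimeric G proteins, stood at 4.11 CPM in primary 4, 6.30 in metastasis 4-1 and 10.4 in metastasis 3-2, against 149 to 307 (log2 fold change -5.03 ± 0.259, edgeR adjusted p = 2.72e-10). Polr2e, a subunit shared by the 3 nuclear RNA polymerases, stood at 0.863, 1.85 and 3.14 CPM against 35.2 to 71.9 (-4.85 ± 0.297). Slc4a2, an anion exchanger gene, had -3.08 ± 0.191, Emc10, of a membrane protein insertion complex, -3.68 ± 0.226, and Rbck1, of the linear ubiquitin ligase complex, -4.04 ± 0.238. The values were -4.85 for Ncdn, -5.15 for Btbd2, -4.09 for Mcrip1, -3.11 for Fam207a and -3.48 for Tbc1d17. The largest falls included the replication-dependent histone genes Hist1h4f (0, 2 and 4 counts in primary 4, metastasis 4-1 and metastasis 3-2, against 143 to 788) and Hist1h3f (1, 3 and 8 counts, against 91 to 1476), and Ccdc124 (-6.64 ± 0.526). The alpha globin gene Hba-a1 was also among them (-7.46), with 0, 28 and 8 counts and 5 to 11090 in the others, so that its groups overlap. With the block Hist1h3f (-5.83, adjusted p = 0.055) and Hba-a1 (-6.73, 0.1) did not pass. Members of the globin and histone families share sequence, and their counts may be split between copies.

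Counts moved by more than 1.5 times under some choices of libraries. With the matched set as a block, 870 genes were higher and 1753 lower, and in that fit the difference rests on metastasis 3-2 against primary 3 and metastasis 3-1. Without primary 4, 2789 were higher, in the metastases alone 2665, and without matched set 4 altogether, which leaves metastasis 3-2 as the single low library and assumes that it varies like the others, 1761 were higher and 2181 lower.

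Khsrp, a KH-domain protein that binds AU-rich elements and takes part in splicing, has 57.3% GC and lies at chr17:57021051-57031522 on the minus strand. It stood at 34.4 CPM in primary 4, 35.0 in metastasis 4-1 and 40.6 in metastasis 3-2, against 98.8 to 183 in the others. Its level was thus 36.7 ± 3.41 CPM (SD, n = 3) against 132 ± 19.3 (SD, n = 17), a log2 fold change of -1.84 ± 0.147 (SE, edgeR adjusted p = 1.08e-08). Sfpq, a paraspeckle protein that binds Neat1 and also acts in splicing, has 49.9% GC and lies at chr4:127021324-127037013 on the plus strand. It stood at 580, 433 and 474 CPM, against 203 to 289, that is 496 ± 76.3 (SD, n = 3) against 242 ± 24.4 (SD, n = 17), with a log2 fold change of 1.03 ± 0.111 (adjusted p = 2.77e-07). For both genes the groups are apart, in opposite directions. Neat1, the RNA scaffold of paraspeckles with 47.3% GC, stood at 1368, 826 and 4112 CPM against 322 to 3971, and did not pass (0.51 ± 0.487, adjusted p = 0.408). Malat1, the nuclear speckle RNA next to Neat1, with 42.5% GC, stood at 24596, 8373 and 12734 CPM against 3713 to 15760 (1.12 ± 0.368, adjusted p = 0.016), and did not pass without primary 4 (0.72, adjusted p = 0.239) or with the block (0.98, 0.401).

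**Figure D4:**
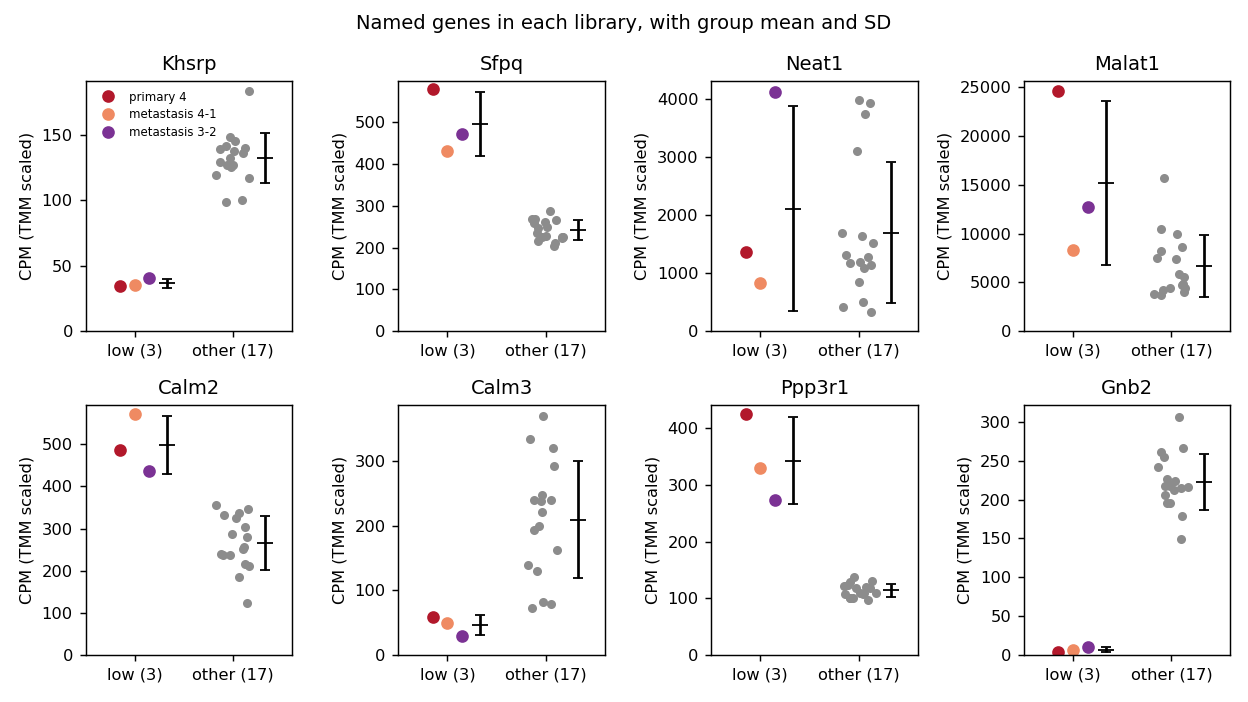
CPM of 8 genes in the 3 low libraries (coloured) and the 17 others (grey), each with the group mean and SD in black. In Khsrp, Calm3 and Gnb2 the low libraries lie below all others, in Sfpq, Calm2 and Ppp3r1 above all others, and in Neat1 and Malat1 the groups overlap.

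The calmodulin genes Calm2 and Calm3 encode the same 148 amino acids with different bases, and they are shown because the protein is held constant between them. Their coding sequences of 447 bases differ at 78 positions and in 0 residues. Calm2 has 42.7% GC over its longest transcript (chr17:87433412-87446935, minus strand) and Calm3 58.3% (chr7:16915379-16924114, minus strand). The first 120 coding bases of each follow, with G and C in capitals.
Calm2: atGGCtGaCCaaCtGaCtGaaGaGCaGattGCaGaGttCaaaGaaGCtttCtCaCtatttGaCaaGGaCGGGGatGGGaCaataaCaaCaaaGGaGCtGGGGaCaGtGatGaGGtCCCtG
Calm3: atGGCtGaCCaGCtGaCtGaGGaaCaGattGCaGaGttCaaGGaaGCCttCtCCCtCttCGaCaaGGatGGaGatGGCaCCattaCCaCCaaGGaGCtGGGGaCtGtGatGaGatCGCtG

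Calm2 stood at 485 CPM in primary 4, 571 in metastasis 4-1 and 435 in metastasis 3-2, against 122 to 356 in the others (log2 fold change 0.91 ± 0.209, edgeR adjusted p = 0.0012). Calm3 stood at 59.3, 49.4 and 28.7 CPM, against 73.3 to 371 (-2.19 ± 0.385, adjusted p = 8.75e-05). The low libraries are thus above all others for Calm2 and below all others for Calm3, a pair chosen after its values were seen. With the block Calm2 did not pass (1.04, adjusted p = 0.152).

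Gene groups with a role near RNase MRP held members that rose and members that fell. The lists below were drawn up with earlier results of these data known, and their counts are to be read beside the 21.8% higher and 27.7% lower of all genes. Of 11 protein subunits of RNase MRP and RNase P, 2 were higher and 5 lower, with a median log2 fold change of -0.63 and a median GC of 51.0%. The subunit genes of smallest p were Rpp25l (59.2% GC, -2.62 ± 0.244), Pop7 (56.3%, -1.72 ± 0.264) and Pop5 (52.9%, -1.91 ± 0.306), each below all other libraries in all 3 low ones. With the block Pop5 did not pass (-1.59, edgeR adjusted p = 0.07). Of 30 RNA polymerase III subunits and factors 10 were higher and 14 lower, with Ssb, the La protein that binds the 3′ ends of polymerase III transcripts (38.1% GC), at 954, 593 and 460 CPM against 99.3 to 342 (1.66 ± 0.187), and Mepce, the enzyme that caps 7SK RNA (59.7% GC), at 4.16, 6.94 and 8.97 CPM against 25.9 to 41.8 (-2.40 ± 0.205). Gtf3c1, the largest subunit of TFIIIC with 55.6% GC, had -1.79 ± 0.185. Of 30 ribosome biogenesis factors 10 were higher and 18 lower, and Rrp9 (-3.82), Bop1 (-3.60) and Tbl3 (-4.15), all of at least 55.5% GC, had the smallest p. Of 28 genes of nuclear and exosomal RNA decay 13 were higher and 10 lower, among them the exosome helicase gene Mtrex (43.97% GC, 1.12 ± 0.138) and the exosome subunit gene Exosc5 (53.8% GC, -2.80 ± 0.242).

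Of 41 splicing factors tested, 25 were higher and 11 lower, with a median log2 fold change of 0.75 and a median GC of 44.8%, below the 48.9% of all genes. Beside Khsrp, the genes of smallest p were Hnrnpk, an RNA-binding protein gene of 42.9% GC, at 1135, 921 and 779 CPM in primary 4, metastasis 4-1 and metastasis 3-2 against 288 to 449 (1.48 ± 0.124, edgeR adjusted p = 1.65e-08), and Ptbp1, a splicing repressor gene of 53.7% GC, at 45.98, 47.3 and 63.8 CPM against 156 to 236 (-1.84 ± 0.151, adjusted p = 1.34e-08). Of 16 immediate early genes, which are induced within minutes of stimulation, 0 were higher and 5 lower (median -1.07, median GC 54.2%), first Junb at 1.01, 1.20 and 2.54 CPM against 11.5 to 126 (-4.78 ± 0.754), which did not pass with the block (-3.80, adjusted p = 0.076). Of 18 p53 targets 3 were higher and 7 lower, with the apoptosis gene Bax (63.5% GC) at -3.67 ± 0.284. Heat shock genes had 5 higher and 2 lower of 12, cell cycle genes 7 and 8 of 26, long nuclear non-coding RNAs 4 and 0 of 11, snoRNA host RNAs 6 and 2 of 18, and the named structured small RNAs 4 and 2 of 13.

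Messenger RNAs of the mitochondrial genome, which have little GC, took a larger share of counts in the low libraries. Of 13 mitochondrial messenger RNAs 7 passed the filter on low counts and all 7 of these were higher (median log2 fold change 2.03, median GC 37.1%). Together the 13 took 1.75% of counts in primary 4, 1.12% in metastasis 4-1 and 1.71% in metastasis 3-2, against 0.245% to 0.760% (exact permutation p = 0.0018, adjusted p = 0.0034). mt-Co1, a subunit of cytochrome oxidase, stood at 11509, 5649 and 6903 CPM against 1035 to 3265 (2.09 ± 0.263), but did not pass with the block (1.63, edgeR adjusted p = 0.079). mt-Nd1 and mt-Nd4, subunits of complex I, had 2.08 ± 0.237 and 1.81 ± 0.195. Mitochondrial ribosomal RNA took 4.45%, 7.10% and 6.22%, against 0.933% to 12.3%, and the highest of all was metastasis 3-1, so these groups overlap (exact permutation p = 0.046, adjusted p = 0.046). Its larger RNA, mt-Rnr2, had 1.61 ± 0.430 (adjusted p = 0.0041), with 1.26 (0.072) without primary 4 and -0.12 (0.942) with the block. The smaller, mt-Rnr1, did not pass (1.27 ± 0.564, adjusted p = 0.069), and passed without metastasis 3-1 (1.70, 4.41e-06), with DESeq2 (1.79, 8.42e-11) and with limma voom (1.58, 0.012).

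Genes of a single exon also ran in order of GC, but from 50% GC up their medians were nearer to 0 than those of other genes, a difference that was not tested. Among protein-coding genes of 55% to 60% GC whose mean log2 CPM reached 2, the 35 with 1 annotated exon had a median log2 fold change of -0.37, with 10 higher and 10 lower, whereas the 1842 with more exons had a median of -2.48, with 4 higher and 1641 lower. Under 50% GC the medians were 1.01 and 0.62, at 50% to 55% they were -0.22 and -1.03, and at 60% or more -1.82 and -3.50. In that last class 13 of 16 genes of 1 exon and 299 of 312 others were lower. Hnrnpa0, a single-exon RNA-binding protein gene of 55.4% GC, stood at 580 CPM in primary 4, 428 in metastasis 4-1 and 350 in metastasis 3-2, against 123 to 182, above all others (1.601 ± 0.130, edgeR adjusted p = 1.24e-08). Pcbp1, a single-exon poly(C)-binding protein gene of 57.8% GC, stood at 62.1, 124 and 93.9 CPM against 30.4 to 182 (-0.13 ± 0.313, adjusted p = 0.752). Both were chosen after their values were seen. Replication-dependent histone genes, which also lack introns and whose messenger RNAs lack a poly(A) tail, took 0.0128%, 0.0120% and 0.0203% of counts in the order above, against 0.0311% to 0.239%, all below the others (exact permutation p = 0.0165, adjusted p = 0.019).

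**Figure D5:**
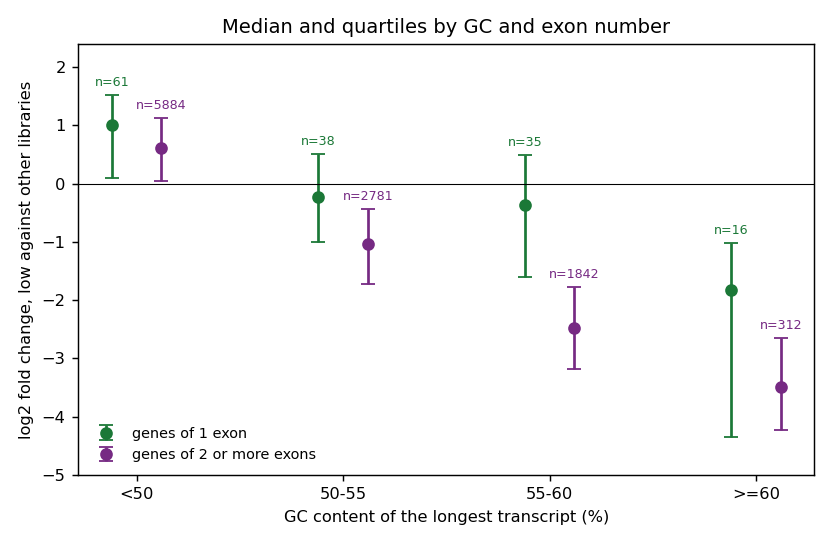
Median and quartiles of the log2 fold change, 3 low against 17 other libraries, of protein-coding genes by GC content, for genes of 1 exon (green) and of more exons (purple), with the number of genes above each. At 55% to 60% GC the medians are -0.37 and -2.48.

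Gene models outside known messenger RNAs took more of the counts in some low libraries. Genes of the annotation's class TEC, provisional models that await experimental evidence, took 0.475% in primary 4, 0.237% in metastasis 4-1 and 0.424% in metastasis 3-2, against 0.103% to 0.353% (exact permutation p = 0.0073, adjusted p = 0.01). Sense intronic genes took 0.0558%, 0.0289% and 0.0539%, against 0.0135% to 0.0428%. Odorant, vomeronasal and taste receptor genes, which serve the sensing of chemicals, summed to 77.2, 39.6 and 46.3 CPM of unscaled counts, against 9.09 to 55.3 (exact permutation p = 0.0275, adjusted p = 0.0294). In these measures primary 4 is above all others and metastasis 4-1 lies among them. Genes with at least 1 count numbered 20352 in primary 4, fewer than in any other library, and 25643 and 25915 in the low metastases, within the 22951 to 29563 of the others. The part of these transcripts in the other differences was not tested. Genes of ribosomal proteins took 0.529%, 0.458% and 0.512% of counts, against 0.579% to 1.37%, with no overlap.

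An offset for GC, fitted to each library as a smooth curve over protein-coding genes and chosen after seeing the data, reduced the calls. With it 1975 genes (9.88%) were higher and 1629 (8.15%) lower, in place of 4361 and 5525. Of the 4361 higher genes 705 remained called higher and 42 turned to lower, and of the 5525 lower genes 1380 remained and 538 turned to higher. A further 939 genes were called with the offset alone. Without primary 4, 863 were higher and 1130 lower with the offset, and with the matched set as a block as well 76 were higher and 95 lower. Among small RNAs 9 were higher and 30 lower, and those of 50% GC or more then differed by size. The 34 of 200 bases or more had a median of -2.60, with 2 higher and 15 lower, and the 60 under 200 bases a median of -0.51, with 6 higher and 7 lower. Of those of under 50% GC, the 16 longer ones had a median of -0.45 and the 134 shorter ones 0.22. The difference between the size classes was not tested. Of those of 50% GC or more, most of the longer ones are of the misc_RNA type, Rn7sk among them. Most of the shorter ones are of other types, so size and type go together here.

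With the offset Khsrp turned from lower to higher, at 0.85 ± 0.157 (SE, edgeR adjusted p = 0.000514), while Sfpq stayed higher at 1.40 ± 0.153 (adjusted p = 1.55e-06). Malat1 (0.13, adjusted p = 0.868), Xiap (0.02, 0.958) and Tug1 (0.28, 0.169) no longer passed, nor did Calm2 (-0.06, 0.877) or Calm3 (0.76, 0.131). Gnb2 (-1.85), Polr2e (-2.54), Ncdn (-1.69), Snora78 (-3.15) and Rpph1 (-4.22 ± 0.614, adjusted p = 4.39e-05) remained lower. So did Snora73b (-2.64, 0.000136), Snord104 (-2.54, 0.000301) and Terc (0.0026). Of the other small RNAs described above, Rn7sk (-0.52, 0.278), Rny1 (0.98, 0.072), Snord69 (0.49, 0.36), Snord17 (-1.60, 0.098) and Gm22009 (-0.63, 0.088) no longer passed. Rps26, a ribosomal protein gene of 48.3% GC, stood at 12.4, 11.2 and 22.9 CPM in primary 4, metastasis 4-1 and metastasis 3-2 against 121 to 230, and had -3.55 ± 0.258 without the offset and -3.54 ± 0.237 with it. Arf6, a small GTPase gene of 60.04% GC, stood at 225, 184 and 138 CPM against 74.4 to 189 and was among the genes of smallest p with the offset (3.79 ± 0.189). Without the offset Arf6 had 0.43 ± 0.148 (adjusted p = 0.021), and 0.40 (0.089) without primary 4, 0.40 (0.075) without metastasis 4-1 and 0.45 (0.366) with the block. Rps26 and Arf6 were chosen after their values were seen. Of the 41 splicing factors 17 were higher and 4 lower with the offset, with a median of 0.36, against -0.08 for all genes. Of the 7 mitochondrial messenger RNAs 1 was higher and 0 lower, and of the 11 RNase MRP and P proteins 2 and 1. The 16 immediate early genes turned, with 4 higher and 1 lower and a median of 0.71. For the RNA polymerase III genes the offset left 3 higher and 2 lower, for ribosome biogenesis 3 and 7, for RNA decay 5 and 4, for p53 targets 3 and 1, for heat shock genes 4 and 0 and for cell cycle genes 0 and 1.

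Markers of other cell types differed among the low libraries, and fewer cells of a type cannot be told apart in bulk RNA from less RNA per cell. Primary 4 was below the other primary tumours in some lists. Its 13 macrophage genes summed to 23.1 CPM (here of the unscaled total), against 142 to 6902, and 10 red cell genes to 1.18 against 8.10 to 79.3. Its 12 neutrophil genes summed to 0.342 against 2.50 to 375, and 22 lung epithelium genes to 26.2 against 96.2 to 580. Its 12 endothelial genes (40.1 CPM, against 17.3 to 859) and its 21 skeletal muscle genes (55.5, against 7.44 to 34250) lay inside the range of the other primary tumours. The same was true of its T and natural killer cell genes (13.6, against 8.13 to 245) and its myogenic genes (499, against 8.59 to 2980). Metastases 4-1 and 3-2 had macrophage sums of 3766 and 790, inside the 623 to 6389 of the other metastases. Their lung epithelium sums of 1798 and 727 were inside 652 to 16035. Both were above the 96.2 to 580 of the other primary tumours, and the lung content of these samples was not tested. Of 15 collagen and fibroblast genes 8 were lower and 0 higher, and their sum was 5914, 8600 and 5384 CPM in primary 4, metastasis 4-1 and metastasis 3-2 against 7782 to 33218, so that metastasis 4-1 lies among the others. With the GC offset 2 of the 15 were higher and 2 lower. Col5a1, a fibrillar collagen gene of 58.02% GC, stood at 103, 96.8 and 63.0 CPM against 202 to 603 (log2 fold change -2.01 ± 0.269, edgeR adjusted p = 3.72e-06), and turned to 0.89 (adjusted p = 0.0084) with the GC offset. Col1a2, a type I collagen gene, turned likewise from -0.91 to 1.25 (3.69e-05), while the growth factor receptor gene Pdgfrb remained lower, at -3.04 and -1.36 (0.0065). With the block Col1a2 (-1.001, 0.058) and Pdgfrb (-2.30, 0.087) did not pass. No cell type list other than the collagens had a member called after the offset, and the counts without it were 1 higher and 5 lower of 22 for lung epithelium, 0 and 2 of 21 for skeletal muscle, 0 and 5 of 12 for endothelium, 0 and 3 of 13 for macrophages and 1 and 1 of 13 for myogenic genes. For T and natural killer cells they were 0 and 1 of 16, for neutrophils 0 and 1 of 12 and for red cells 0 and 2 of 9. Over all genes tested 21.8% were higher and 27.7% lower without the offset, and 9.88% and 8.15% with it. A gene not called may still differ, since errors were wide for some, such as the muscle gene Ckm (-5.35 ± 2.33, SE, with the offset). The median GC of these lists lay between 48.8% and 54.8%, and the part of cell content in the differences was not tested.

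The low libraries also bear on the comparison of metastases with primary tumours. With all 20 libraries and matched set as a block, 2913 genes (13.9% of 20889) differed between metastases and primary tumours, 1598 of them higher in metastases, and with the 17 libraries that are not low 3376 (16.4% of 20609) did, of which 2469 were shared in the same direction. Neat1 had a log2 difference, metastasis minus primary, of 1.55 ± 0.419 (SE, edgeR adjusted p = 0.0228) over 20 libraries and 1.87 ± 0.341 (0.0044) over 17. Sfpq had 0.09 (0.753) and 0.10 (0.496) and did not pass. The 3 libraries were left out for their Rmrp, so genes that follow Rmrp are not compared here. The fits share 17 libraries, and the difference between them was not tested.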

How the data were processed

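RNA-seq was compared between 3 libraries with under 0.02% of counts on Rmrp and the 17 others. Extraction used a Direct-zol kit and library preparation a stranded Ribo-Zero Gold kit, which depletes ribosomal RNA, per the labels' protocols. The authors deposited raw counts per gene. Per the submitters' processing notes, they used Trimmomatic 0.36, STAR (given as version 5.5.4b), HTSeq and the mm10 build. The sources used here do not give the annotation release, the strand setting or the handling of multiply matching reads. The 51826 identifiers were matched to GENCODE vM21, and the 193 without a gene hold 0.017% of counts. Length and GC are those of the longest transcript. The members, lists and alternatives were chosen with earlier results of these data known, and since Rmrp chose the libraries, p-values say how closely genes follow that split and are no independent test of it.

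Counts were tested with edgeR 4.0.16 (R 4.3.3): filterByExpr with a minimum count of 10, TMM factors, robust quasi-likelihood fit with tumour type as covariate, 17 residual degrees of freedom, Benjamini-Hochberg adjustment over 19980 genes without Rmrp, threshold 0.05. Library-level values were tested by exact permutation within tumour type (scipy 1.17.1), without regard to matched set. Alternatives were DESeq2 1.42.0, limma 3.58.1 (voom), other scalings, filters, thresholds of 0.01% and 0.04%, tissue covariates, a block, and leaving out libraries or sets. A GC offset (lowess span 0.2) was chosen after seeing the data. Both fits were run on simulated counts, a check of the code and not of how well the offset suits these libraries. Matched sets were read from the sample titles. Each primary tumour was correlated with each of its metastases over the 1000 most variable genes, centred within tumour type. The mean correlations were 0.28, 0.06, -0.14, 0.25, -0.21 and 0.10 in sets 1 to 6. The genes named are Rmrp, Khsrp, Sfpq, Neat1, Malat1, Rpph1, the 10 of smallest p and 8 of largest change in each direction (mean log2 CPM from 2 up, no provisional symbol), the 3 of smallest p in each list and the 6 small RNAs of highest level. Not all of these are described, mostly those of the cell type lists and those that rest on 1 library. The result of 1 gene is not reported here. Calm2, Calm3, Snord69 and Snord104 and the genes said so in the text were picked after their values were seen.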

Additional observations from a re-analysis of the deposited data

Results flagged for a closer look

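Primary 4 stood far from the other 5 primary tumours in several library-level values, with a gap to the nearest of them that took a larger part of the whole range than the 0.625 set for 6 samples. The part was 0.694 for the short minus long transcript index, where primary 4 had -2.91 and the next -1.46. It was 0.636 for the share of protein-coding counts on genes of 55% GC or more (2.18% and 11.9%), 0.806 for genes of 42% GC or less (33.4% and 16.5%) and 0.740 for the mean GC of protein-coding counts (44.3% and 47.8%). It was 0.764 for mitochondrial messenger RNA (1.75% and 0.601%) and 0.742 for odorant, vomeronasal and taste receptor genes (77.2 and 26.7 CPM). Among the genes named by the choice of libraries it was 0.660 for Khsrp, the lowest at 34.4 CPM with the next at 98.8, and 0.858 for Sfpq, the highest at 580 CPM with the next at 268. Among 73 other named genes primary 4 was such an outlier in 45. Chance flags about 1 in 20 groups, and these values share the same library. Most of the 73 genes were named for their difference in the low libraries, and primary 4 is the only low primary tumour. The library-level values, Khsrp and Sfpq come from 21 values tested in this way and are likewise not independent of the choice of libraries. Neither they nor the 45 can therefore be set against that rate.

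The difference between low and other libraries differed between primary tumours and metastases for 226 of 22330 genes by an interaction term in edgeR (adjusted p under 0.05), a contrast in which 1 primary tumour stands for the low group. With the GC offset 252 genes did. Of the genes named here Pdgfrb was 1 of the 226 (adjusted p = 0.0258), at 4.31 CPM in primary 4 and 15.7 and 15.9 in metastases 4-1 and 3-2, against 55.5 to 210.4 in the other libraries.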

How the results depend on the processing

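Among counts of genes, those higher in the low libraries numbered 3281 to 4914 and those lower 4992 to 6165 with DESeq2, limma voom, other scalings, no filter on low counts, thresholds of 0.01% and 0.04%, the log2 Rmrp share as a number and the tissue covariates. Leaving out each library gave 2789 to 4562 higher and 4291 to 5864 lower, with the low end in both without primary 4. In metastases alone 2665 were higher, and without matched set 4, 1761 and 2181 were higher and lower. The matched set as a replicate block gave 870 and 1753, and the cause was not tested. The GC offset gave 1975 and 1629, with 863 to 1944 and 1130 to 1483 when each low library was left out, and with the replicate block 76 and 95. Adding length to the offset (2121 and 1558) or taking GC over all transcripts (1893 and 1428) kept both within 1.5 times.

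The share of small RNAs kept its direction and passed under all alternatives but the block and the one without misc_RNA (-0.434 points, exact permutation p = 0.095). Without each library in turn it ran from -2.19 to -1.76 points, the short minus long index from -1.44 to -1.02 and the share on genes of 55% GC or more from -13.6 to -12.8. With the replicate block these 3 values were -2.27 points, -1.16 and -13.1 points, estimated from set 3 alone, where 2 arrangements of the labels allow no p under 0.5 (exact permutation p = 0.5 for each).

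Of the 78 named genes 54 kept their call and direction with the block, 22 no longer passed and 2 reversed, Dnah5 (-1.27) and mt-Rnr2 (-0.12). Dnah5 also reversed in metastases alone (-0.11), without matched set 4 (-0.45) and without primary 4, and ran from -0.048 to 6.01 when each library was left out. With the GC offset 39 kept their call and direction, 26 no longer passed and 13 reversed in sign: Khsrp (0.85), Gm22009 (-0.63), Rpp25l (0.43), Pop7 (0.73), Mepce (0.73), Gtf3c1 (0.32), mt-Rnr2 (-0.022), Bax (0.19), Col5a1 (0.89), Col1a2 (1.25), Calm2 (-0.063), Calm3 (0.76) and Pcbp1 (2.66). Of these 13 only Khsrp, Mepce, Col5a1, Col1a2 and Pcbp1 passed with the offset, and Pcbp1 had not passed without it. Low counts limit the genes at under 1 CPM in the low libraries, such as Terc.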
